A study of Homo sapiens with 12 samples.

Results

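The integrin and laminin genes described here are 25 integrin subunit genes and 10 laminin chain genes, chosen by gene name as 2 families that meet at the basement membrane. All 35 were found among the 56269 genes of the deposited count table. RNA was sequenced from HCC1954, an established human breast cancer line in which the receptor gene ERBB2 (HER2) is amplified. Per the labels, 12 cultures received for 24 hours either DMSO (the solvent control), SNXB at 1 µM, Lapatinib at 1 µM, or Combination, with 3 biological repeats of each. Lapatinib inhibits the EGFR and ERBB2 kinases. Neither the target of SNXB nor the doses within Combination are stated by the labels. All cultures were of the same line, grown in RPMI1640 with 10% FBS and pen/strep/Glutamine.

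The 12 count columns are named S13 to S24, and neither a label nor a column name ties a column to a treatment. The libraries are therefore described as 12 unlabelled cultures under those names. No treatment was compared with another, no 2 libraries are known to be repeats of each other, and no test was possible. Differences between libraries may come from treatment, biological repeat or library preparation, and these cannot be told apart. Values are given for each library, or as the lowest, the median and the highest of the 12. In such bulk RNA, fewer cells of a type and less RNA per cell cannot be told apart either.

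Integrins are cell surface receptors made of 1 alpha and 1 beta subunit. They bind proteins of the extracellular matrix outside the cell and the actin or keratin cytoskeleton inside it, and the pair of subunits decides the ligand. Laminins are secreted trimers of an alpha, a beta and a gamma chain that form the sheet of the basement membrane. In breast epithelium the integrin pairs ITGA3/ITGB1 and ITGA6/ITGB4 anchor cells to laminin, and ITGA6/ITGB4 does so in hemidesmosomes, the junctions that tie keratin filaments to the basement membrane.

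Of the 35 genes, 25 had a start site in the RefSeq promoter table (GRCh38.p14), with 32 windows in all because 5 genes had more than 1. The 250 bases before the start are printed for 4 genes that varied widely between libraries. LAMA3, LAMB2 and ITGB6 had their 4 highest levels in the same libraries, and ITGA2 had its 4 highest in others. Capitals mark matches, on either strand, to the motif of the transcription factor AP-1, written TGANTCA, or to the motif that SP1 family factors bind, known as the GC box and written GGGCGG. The TATA box, written TATAAA, was also searched for on both strands and had no match in these windows. None of the marked matches overlaps another.
LAMA3 (chr18:23872770-23873019, plus strand): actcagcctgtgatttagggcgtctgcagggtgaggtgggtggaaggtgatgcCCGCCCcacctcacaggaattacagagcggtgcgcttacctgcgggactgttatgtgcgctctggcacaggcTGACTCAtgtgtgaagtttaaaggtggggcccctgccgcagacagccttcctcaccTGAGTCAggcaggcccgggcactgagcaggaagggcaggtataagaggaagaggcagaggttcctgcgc
LAMB2 (chr3:49133051-49133300, minus strand): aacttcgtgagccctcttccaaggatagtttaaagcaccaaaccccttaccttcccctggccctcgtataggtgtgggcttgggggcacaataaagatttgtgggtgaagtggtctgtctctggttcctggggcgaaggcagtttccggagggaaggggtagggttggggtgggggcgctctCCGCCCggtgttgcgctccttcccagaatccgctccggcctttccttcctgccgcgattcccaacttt
ITGB6 (chr2:160200273-160200522, minus strand): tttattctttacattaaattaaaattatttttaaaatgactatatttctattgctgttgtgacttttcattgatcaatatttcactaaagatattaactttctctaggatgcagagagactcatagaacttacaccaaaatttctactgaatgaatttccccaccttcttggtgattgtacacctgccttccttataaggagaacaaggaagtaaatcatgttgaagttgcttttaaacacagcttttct
ITGA2 (chr5:52989102-52989351, plus strand): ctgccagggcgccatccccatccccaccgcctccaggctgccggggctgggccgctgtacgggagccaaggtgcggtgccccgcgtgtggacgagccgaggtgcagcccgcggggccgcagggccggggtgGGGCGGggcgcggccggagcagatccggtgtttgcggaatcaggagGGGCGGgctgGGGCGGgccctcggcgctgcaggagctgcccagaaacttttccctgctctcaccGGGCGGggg

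The LAMA3 window held 2 AP-1 matches and 1 GC box match, with 60.4% G and C bases. In LAMB2 the window held 1 GC box match and had 58.4% G and C. ITGA2 held 4 GC box matches and had 76.4% G and C, whereas ITGB6 had no match to any of the 3 motifs and 30.0% G and C. The median over all 35116 windows of the table was 58.0%. An AP-1 match was present in 6.57% of all windows of this length and in 2 of the 26 windows of expressed members, 1 of LAMA3 and 1 of LAMB3. A GC box match was present in 42.6% of all windows and in 15 of the 26, and the TATA box in 10.7% of all windows and in 2 of the 26. Windows of the same gene are counted separately here. The LAMB3 windows at 209652330 to 209652579 and 209652426 to 209652675 overlap and hold the same GC box match. The starts used for LAMA3 and ITGB6 lie inside the gene as counted, which covers longer transcripts too. A match describes the letters of a window and not the binding of a factor.

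Levels are given on 2 scales. CPM (counts per 1000000 counted fragments) relates a gene's fragments to all counted fragments of its library, of which there were 9289353 to 12219397. TPM (transcripts per 1000000 transcripts) also takes the exonic length into account, so genes are compared with each other in TPM only. A gene with a mean of at least 1 CPM over the 12 libraries is called expressed. This held for 25 of the 35 members, 17 of 25 integrin and 8 of 10 laminin genes, and for 14279 of the 56269 genes in the table.

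Among the 8 beta subunits, ITGB1, the common partner of many alpha subunits, was the highest. Its TPM was 481, 588 and 746 (lowest, median and highest library), above every other member in all 12 libraries. Its median was higher than that of 98.5% of expressed genes. On the CPM scale ITGB1 was at 691.5, 862.5 and 1109, a 1.60-fold range. ITGB4, whose long intracellular tail binds plectin in hemidesmosomes, followed at 227, 253 and 360 TPM. By exonic length, its lowest library was still above the highest library of each member other than ITGB1. This did not hold with the longest transcript as length. The CPM of ITGB4 was 371, 420 and 579. ITGB1 made up 45.0% to 62.5% and ITGB4 19.04% to 30.9% of the summed TPM of the beta subunits. ITGB4 was highest in S15, S13, S23 and S19, and ITGB1 had its lowest values in S19, S17, S13 and S15, so 3 of these 4 libraries were the same.

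ITGB6, which pairs with ITGAV to form an epithelial receptor that activates latent TGF-beta, varied more. From S13 to S24 in that order it was at 187, 207, 265, 327, 161, 191, 257, 339, 70.9, 83.7, 141 and 191 CPM. Values above 250 CPM were found in S15, S16, S19 and S20, and values below 100 CPM in S21 and S22. The highest library was 4.78-fold above the lowest. ITGB6 (chromosome 2, 160099666 to 160271888, minus strand, GRCh38) was at a median of 123 TPM. ITGB5, another partner of ITGAV that binds vitronectin, was at 84.2, 129 and 189 CPM and a median of 83.6 TPM. The ratio of ITGB6 to ITGB5 in TPM ran from 0.387 in S21 to 3.73 in S16, so that the order of this pair was reversed between libraries.

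ITGB8, the remaining expressed partner of ITGAV, was at 21.02, 45.3, 33.0, 42.6, 18.9, 38.5, 29.7, 46.0, 29.1, 89.9, 36.8 and 97.0 CPM from S13 to S24. S22 and S24 stood apart, since the next highest library, S20, was at 46.0 CPM. ITGB8 (chromosome 7, 20330702 to 20415754, plus strand) had a range of 5.15-fold and a median of 10.1 TPM. ITGB2, the beta subunit of leukocyte integrins, was at 26.1, 33.0 and 40.2 CPM and a median of 19.7 TPM. The last pair of beta subunits, ITGB3 and ITGB7, was below the minimum and is described with the other such members.

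**Figure D1:**
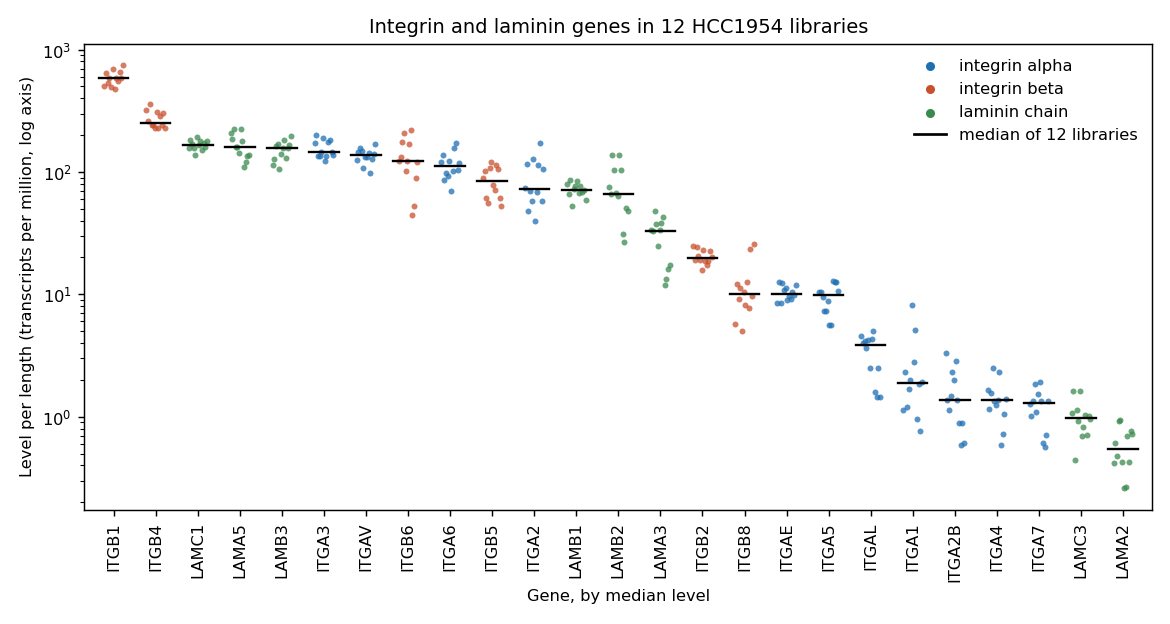
Level per length (TPM, log axis) of the 25 expressed integrin and laminin genes, ordered by their median. Each point is 1 of 12 libraries and each black line the median. By exonic length, ITGB1 (median 588 TPM) and ITGB4 (median 253 TPM) lie above all other members.

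Of the alpha subunits that bind laminin, ITGA3 and ITGA6 were both abundant. ITGA3, a partner of ITGB1, was at 291, 354 and 481 CPM and a median of 146 TPM, higher than 90.8% of expressed genes. It made up 24.5% to 33.5% of the summed TPM of the alpha subunits. ITGA6, which pairs with ITGB4 or ITGB1, was at 189, 221, 135, 159, 151, 195, 110, 160, 259, 283, 170 and 190 CPM from S13 to S24. S21 and S22 were highest and S19 and S15 lowest, with a range of 2.57-fold. ITGA6 (chromosome 2, 172427354 to 172506282, plus strand) had a median of 111 TPM. ITGA7, a laminin receptor best known from muscle, was at 0.904, 1.99 and 2.96 CPM and a median of 1.301 TPM.

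ITGB4 was above its only alpha partner, ITGA6, in every library. The ratio of ITGB4 to ITGA6 in TPM was 1.39 to 4.37 with a median of 2.37, lowest in S22 and highest in S19. ITGA6 is shared with ITGB1, so this ratio of mRNA levels is no measure of how much of the pair was formed.

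ITGA2 and ITGA1 encode the collagen-binding alpha subunits that were expressed, and both pair with ITGB1. ITGA2 was at 141, 225, 90.5, 138, 114, 246, 75.5, 132, 225, 345, 113 and 207 CPM from S13 to S24. S22 was highest, followed by S18, S21 and S14, and S19 and S15 were lowest, a 4.58-fold range. ITGA2 (chromosome 5, 52989326 to 53094779, plus strand) had a median of 72.3 TPM and made up 10.1% to 25.3% of the alpha subunits. Its neighbour on the same strand, ITGA1 (52787896 to 52959210), was far lower, with a median of 1.87 TPM. ITGA1 had 41 to 356 fragments a library, which gave 5.07, 10.5, 5.30, 7.78, 9.18, 36.8, 12.4, 22.9, 4.44, 8.59, 3.56 and 8.75 CPM from S13 to S24. S18 and S20 were high, and the other libraries were at 12.4 CPM or below. The range was 10.4-fold, the widest of the members with a mean of at least 5 CPM, and 6.45-fold without S18. These neighbouring genes shared S14 and S18 among their 4 highest libraries; the others were S21 and S22 for ITGA2 and S19 and S20 for ITGA1.

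Among the alpha subunits that bind the RGD sequence of matrix proteins, ITGAV was the highest. It pairs with ITGB1, ITGB3, ITGB5, ITGB6 or ITGB8 and was at 202, 275 and 341 CPM and a median of 137 TPM. ITGAV made up 17.2% of the alpha subunits in S21 and 34.4% in S15. ITGA5, whose pair with ITGB1 is the main fibronectin receptor, was much lower, at 10.2, 17.98 and 24.6 CPM and a median of 9.92 TPM. Its 4 highest libraries were S21, S22, S23 and S24. ITGA2B, a platelet subunit that pairs only with ITGB3, was at 0.814, 1.84 and 4.39 CPM and a median of 1.37 TPM.

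Of the subunits known mostly from leukocytes, ITGAE, ITGAL and ITGA4 were expressed at low levels. ITGAE was at 13.5, 16.8 and 20.5 CPM and a median of 10.1 TPM, the narrowest range of the expressed integrin genes (1.51-fold). ITGA4 was at 1.16, 2.63 and 4.91 CPM and a median of 1.36 TPM. ITGAL, the partner of ITGB2, was at 7.09, 6.36, 6.45, 5.89, 6.83, 3.93, 6.63, 7.86, 2.58, 2.35, 3.99 and 2.32 CPM from S13 to S24. S21, S22, S24, S18 and S23 were at 3.99 CPM or below and the other libraries at 5.89 CPM or above. ITGAL (chromosome 16, 30472658 to 30523185, plus strand) rested on 22 to 84 fragments a library, had a range of 3.39-fold and a median of 3.85 TPM, and ITGB2 was 3.69 to 13.9 times as high in TPM.

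Markers of leukocytes were checked beside ITGAL and ITGB2, and 1 of 6 was expressed. This was LCP1, an actin-bundling protein, at 7.17 to 23.3 CPM. PTPRC, the common leukocyte antigen CD45, was at 0 to 0.622 CPM, and CD14, CD3E and CD68 reached 0.422, 0.0889 and 0.108 CPM at most. The summed level of the 6 was 7.44 to 23.5 CPM. LCP1 was thus expressed, and PTPRC, CD3E and CD68 were at or near 0, in the libraries in which ITGB2 and ITGAL were read. The part of leukocytes in the ITGB2 and ITGAL levels was not tested. For ITGA2B, none of the 4 platelet markers was expressed, and their sum was 0.173 to 1.68 CPM. GP1BA was at 0.105 to 1.68 CPM, and PF4 and PPBP reached 0.181 and 0.211 CPM at most.

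Below the minimum were 10 members. The integrin genes ITGA10 (0.173 to 1.51 CPM), ITGB7 (0.0867 to 1.08 CPM) and ITGB3 (0 to 2.28 CPM) were the highest of these. LAMA4, ITGAM, ITGA9, ITGA11 and ITGAX each stayed at or below 0.431 CPM. ITGA8 and LAMA1 had no fragment in any of the 12 libraries, which allows a level of up to 0.0231 CPM over all libraries or 0.246 to 0.323 CPM in a single one. At the minimum itself, LAMA2 was just inside, with a median of 1.33 CPM, and ITGA10 just outside.

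ITGB3, the partner of ITGAV and ITGA2B, had 2, 13, 0, 19, 1, 22, 1, 14, 0, 4, 0 and 3 fragments from S13 to S24. The 4 libraries S14, S16, S18 and S20 held most of its fragments. Its highest library, S18, was at least 8.58-fold higher than S15, taking 3 fragments as the most that a count of 0 in S15 allows. In the annotation, 51.6% of the exonic bases of ITGB3 also belong to a clone-named gene on the same strand, and how fragments there were assigned was not examined. ITGB7 shares 42.1% of its exonic bases with ZNF740 on the opposite strand, which was at a median of 33.3 CPM. None of the 25 expressed members shares as much as 10% of its exonic bases with another gene.

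Laminin alpha chains carry the domains that integrins bind. LAMA5, the widespread epithelial alpha chain, was at 396, 571 and 768 CPM and a median of 160 TPM, higher than 91.8% of expressed genes. It made up 80.5% to 89.8% of the summed TPM of the alpha chains. LAMA3, the alpha chain of the laminin beneath hemidesmosomes, was at 108, 108, 153, 127, 82.6, 109, 123, 139, 40.3, 45.2, 54.4 and 58.3 CPM from S13 to S24. The values of S21, S22, S23 and S24 were all below those of the other 8 libraries, without overlap. LAMA3 (chromosome 18, 23689443 to 23955066, plus strand) had a range of 3.80-fold and a median of 33.1 TPM. LAMA5 was 4.17 times (S20) to 9.24 times (S21) as high as LAMA3 in TPM, with 13522 exonic bases as the LAMA3 length. The LAMA3 start printed above lies inside the gene, and a length for shorter transcripts was not tried. A shorter length would raise the LAMA3 TPM and change its ratios and the shares of the alpha chains. LAMA2, the alpha chain of muscle and nerve basement membranes, was the lowest expressed member, at 0.627, 1.33 and 2.35 CPM and a median of 0.544 TPM.

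All 3 beta chain members were expressed, at medians of 66.6 to 156 TPM. LAMB3, the partner of LAMA3 in hemidesmosomal laminin, was at 125, 181 and 233 CPM and a median of 156 TPM. LAMB1, the widespread beta chain, was at 106, 145 and 166 CPM and a median of 71.7 TPM. LAMB2, known from neuromuscular and kidney basement membranes, was at 123, 111, 224, 176, 114, 106, 226, 171, 53.8, 45.9, 85.9 and 81.2 CPM from S13 to S24. S19 and S15 were highest, followed by S16 and S20, and S21 to S24 were below all others. LAMB2 (chromosome 3, 49121114 to 49133118, minus strand) had a range of 4.92-fold and a median of 66.6 TPM.

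The ratio of LAMB1 to LAMB2 in TPM ran from 0.508 in S16 to 2.58 in S22, so which of these alternative beta chains was higher differed between libraries. LAMB3 was 3.40 times (S13) to 11.7 times (S22) as high as LAMA3 in TPM by exonic length. The highest ratios, 10.3 or more, were in the libraries in which LAMA3 was lowest. LAMB3 itself had its highest value in S24, and S21 was among its 4 lowest. For the gamma chains, LAMC1, which is part of most laminins, was at 287, 335 and 391 CPM and a median of 167 TPM. Its 1.36-fold range was the narrowest of all expressed members. LAMC3 was at 0.795, 1.85 and 3.001 CPM and a median of 0.983 TPM; its range of 3.77-fold was 2.39-fold without S15.

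**Figure D2:**
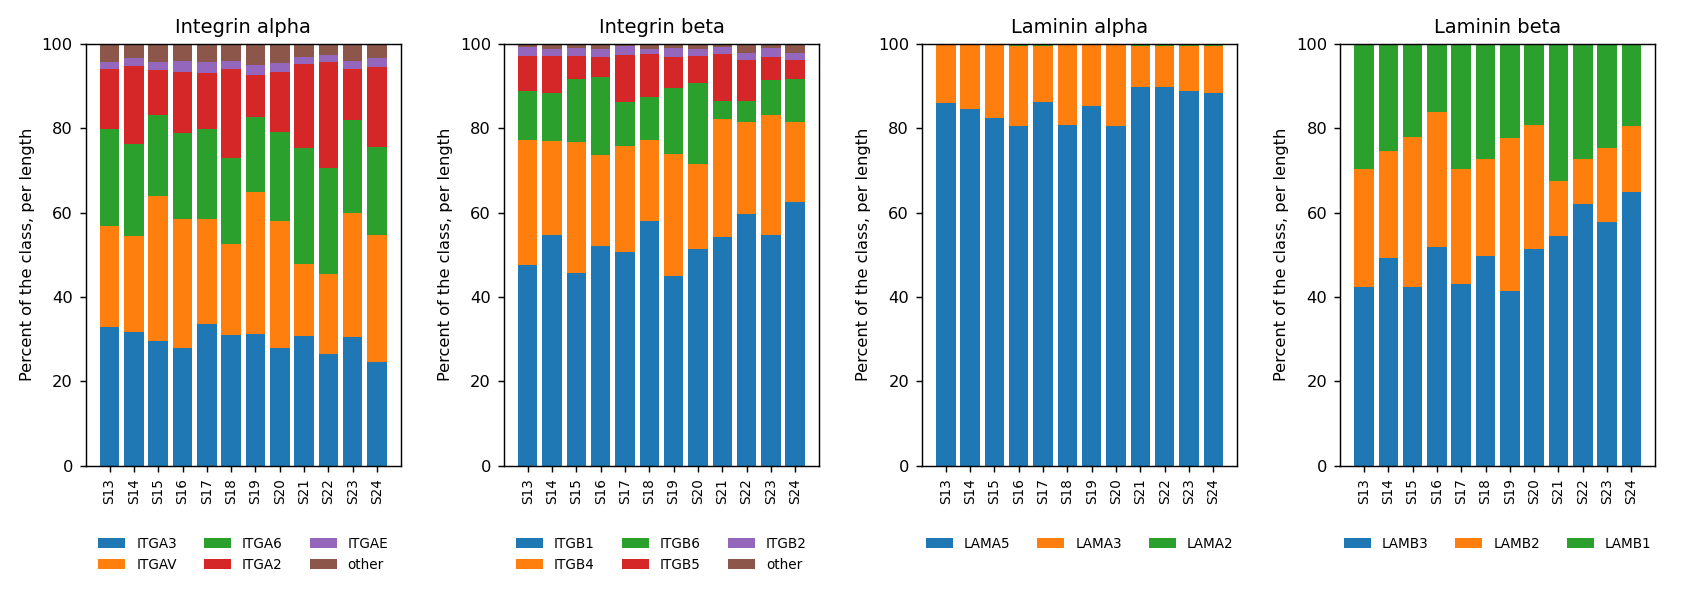
Share of each gene in the summed TPM of its class, in percent, for integrin alpha, integrin beta, laminin alpha and laminin beta genes; each bar is 1 library and "other" sums the remaining members of the class. By exonic length, LAMA5 holds 80.5% to 89.8% of the laminin alpha class in every library, and the LAMB2 share runs from 10.6% to 36.4%.

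By these levels, 13 of the 23 known integrin pairs that can be built from the members had both subunits expressed. Of these, 8 contain ITGB1, with ITGA1, ITGA2, ITGA3, ITGA4, ITGA5, ITGA6, ITGA7 or ITGAV. The others are ITGAV with ITGB5, ITGB6 or ITGB8, then ITGA6/ITGB4 and ITGAL/ITGB2. The less abundant subunit sets how much of a pair the mRNA levels could supply, without regard to sharing, translation or stability, and no protein was measured. That level was highest for the laminin receptor ITGA3/ITGB1, at a median of 146 TPM, followed by ITGAV/ITGB1 at 137 TPM and ITGAV/ITGB6 at 123 TPM. ITGA6 was the lower subunit with either ITGB1 or ITGB4, at 111 TPM. Next came ITGAV/ITGB5 at 83.6 TPM and the collagen receptor ITGA2/ITGB1 at 72.3 TPM, whereas the fibronectin receptor ITGA5/ITGB1 reached 9.92 TPM.

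ITGAV/ITGB6 had its lower subunit at 44.5, 123 and 156 TPM. By exonic length, ITGB6 was the lower subunit in 8 libraries and ITGAV in the other 4, so this pair had no single limiting gene. That split depends on the length used. With the longest transcript as length, the median of ITGB6 (123.9 TPM) was above that of ITGAV (118.7 TPM). By exonic length the medians were in the reverse order, 123.0 TPM for ITGB6 and 136.8 TPM for ITGAV. Libraries were not counted again with the longest transcript. Of the 10 pairs without both subunits expressed, ITGAE is the only expressed alpha subunit that had no expressed partner besides ITGA2B: its partner ITGB7 and the ITGA2B partner ITGB3 were both below the minimum. However, ITGB3 and ITGB7 share 51.6% and 42.1% of their exonic bases with other genes. Their low counts, and so the absence of their pairs with ITGAV, ITGA2B, ITGA4 and ITGAE, are less certain.

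For the laminins, 8 of 13 trimers that the members can form had every chain expressed. The lowest chain of LAMA5/LAMB1/LAMC1 was at a median of 71.7 TPM and that of LAMA5/LAMB2/LAMC1 at 66.6 TPM. By exonic length, LAMA3 was the lowest chain in its trimers with LAMC1 and either LAMB1 or LAMB2, at a median of 33.1 TPM. The remaining trimers with all chains expressed contain LAMA2 or LAMC3 and had a lowest chain with a median below 1 TPM. Summed over its genes, the integrin family was at 1405 to 1808 TPM and the laminin family at 514 to 828 TPM.

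Ordered by median TPM, the expressed members formed a gradient rather than separate tiers. Of 24 neighbouring pairs in this order, 21 had ranges that overlapped over the 12 libraries. The ranges were apart between ITGB1 and ITGB4, between ITGB4 and LAMC1, and between ITGA5 and ITGAL. The upper gene was above the lower in all 12 libraries for these pairs and for LAMB2 over LAMA3. From LAMC1 down to ITGA6, medians ran from 167 to 111 TPM, and no neighbours among these genes differed beyond their spread.

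Fold ranges between libraries were of 1.36-fold (LAMC1) to 10.4-fold (ITGA1). The highest library was at least 2-fold above the lowest in 15 of the 25 expressed members (60.0%), beside 48.4% of all 14279 expressed genes. The median range was 2.57-fold for the members and 1.95-fold for all expressed genes. With a minimum mean of 5 CPM, which removes the genes with the fewest fragments, 10 of 20 members (50.0%) and 34.7% of genes passed. Exact Poisson intervals (95%) of the lowest and the highest library did not touch in any of the 25, but these cover counting error only, and the extremes of 12 libraries were chosen by their values. ITGB1, ITGB4, LAMC1, LAMA5, LAMB3, ITGA3 and ITGAV, the 7 highest in TPM, had ranges under 2-fold, but ITGB6, next in that order, varied 4.78-fold. ITGAE and ITGB2, at far lower levels, varied as little as the highest genes, 1.51-fold and 1.54-fold.

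**Figure D3:**
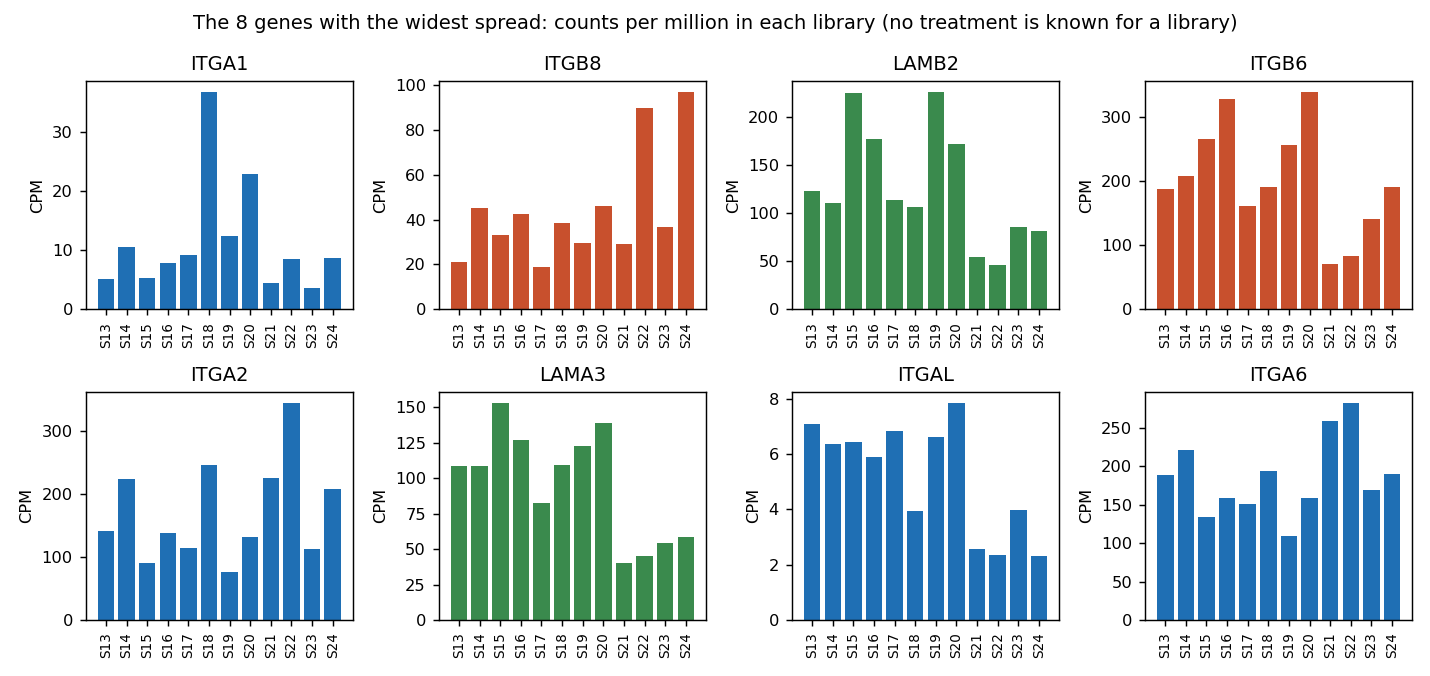
CPM of the 8 members with the widest range among those with a mean of at least 5 CPM, 1 bar for each library, each panel with its own axis from 0. LAMB2, LAMA3 and ITGB6 are highest in S15, S16, S19 and S20, ITGB8 stands out in S22 and S24, and ITGA1 in S18 and S20.

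Several genes were high or low in the same libraries. LAMB2, LAMA3 and ITGB6 had the same 4 highest libraries, S15, S16, S19 and S20, which is 3 of the 25 expressed members beside 9.82% of all expressed genes. These libraries also clustered together over all genes, and the share of members is near that of all genes. In ITGA2, ITGA6 and ITGA3, which encode collagen- and laminin-binding alpha subunits, the 4 highest were S14, S18, S21 and S22, beside 3.09% of genes. With TMM or DESeq2 scaling ITGA6 left this set, and LAMB2, LAMA3 and ITGB6 kept theirs. Of the 28 pairs that the 8 widest members form, 6 (21.4%) shared at least 3 of their 4 lowest libraries, beside 16.1% of pairs of all genes with a mean of at least 5 CPM. The members in these counts were picked out after their values were seen, and the libraries fall into clusters over all genes, so no correlation is given.

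The 4 lowest libraries were S21, S22, S23 and S24 in 4 of the 25 expressed members, LAMA3, LAMA5, LAMB2 and ITGA2B, beside 12.5% of all expressed genes. These libraries were picked after their values were seen. They also had the 4 lowest TMM scaling factors, 0.901 to 0.961 against 1.02 or more in the others. With these factors or with DESeq2's, LAMA3, LAMB2 and ITGA2B kept this pattern and LAMA5 lost it, leaving 3 members beside 8.59% and 8.80% of genes. ITGA5 alone of the expressed members had its 4 highest values in these libraries, beside 2.09% of genes, or 6.76% and 6.27% with TMM and DESeq2 scaling.

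**Figure D4:**
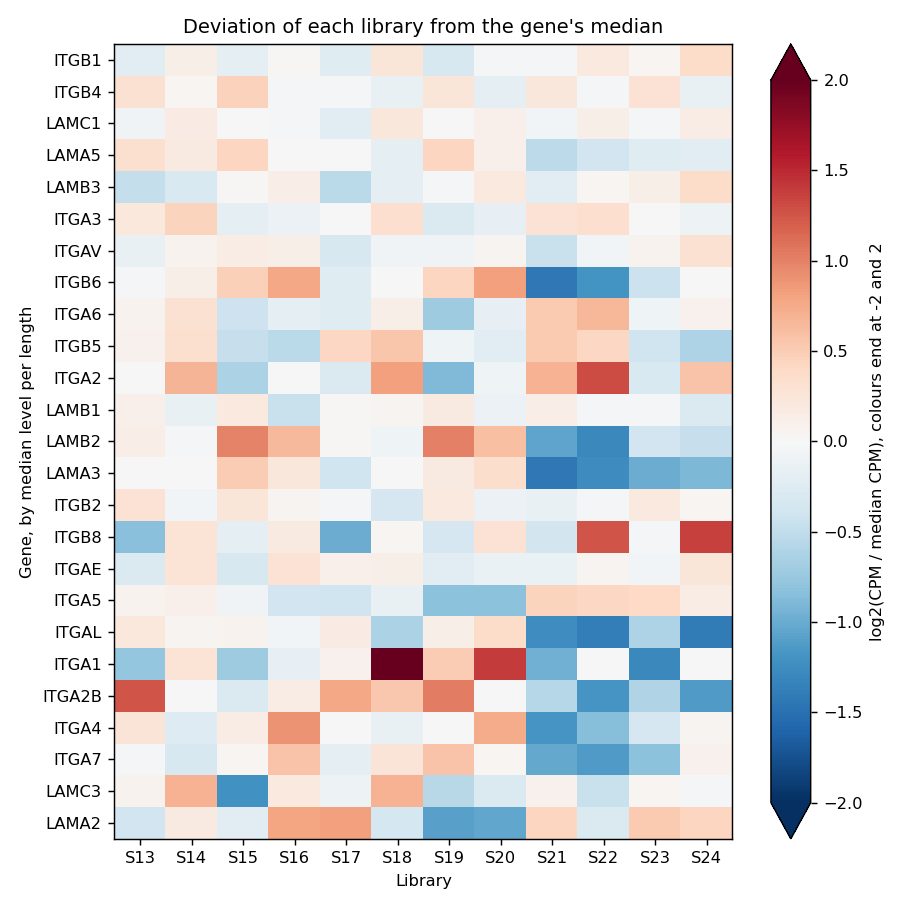
Deviation of each library from the gene's median, as log2 of CPM over median CPM, for the 25 expressed members in order of median TPM; colours end at 2 in either direction, red is above and blue below the median. ITGB6, LAMB2 and LAMA3 are blue in S21 and S22, where ITGA2 and ITGA6 are red.

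Genes that work with integrins and laminins were counted in lists of the pathway. Of 27 integrin adaptors and adhesion kinases, 24 were expressed, and 9 of these (37.5%) had a range of at least 2-fold, beside 48.4% of all expressed genes. Their median range was 1.72-fold, beside 1.95-fold for all expressed genes. ACTN4 and ACTN1, alpha-actinins that link integrins to actin, were at medians of 806 and 316 TPM, and ZYX (zyxin), found at adhesion sites, at 405 TPM. The widest were TNS1 (tensin 1) at 0.814 to 8.50 CPM and FERMT3, the kindlin of blood cells, at 0.632 to 2.85 CPM. ILK, an integrin-linked pseudokinase, was listed at 0.543 to 1.76 CPM. However, 78.5% of its exonic bases are shared with other genes, mainly TAF10 on the opposite strand at a median of 41.9 CPM, so its level cannot be read from these counts.

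All 6 hemidesmosome genes besides the integrins were expressed, and 4 had a range of at least 2-fold (66.7%, beside 48.4% of all expressed genes; median 2.48-fold). KRT5, a basal keratin, was at a median of 264 TPM, CD151, a tetraspanin bound to laminin receptors, at 230 TPM, and PLEC, the plectin that joins ITGB4 to keratin, at 185 TPM. KRT14, the partner of KRT5, had the widest range, 9.45 to 70.6 CPM. COL17A1, a transmembrane collagen of the hemidesmosome, was at 1.84 to 5.72 CPM.

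Of 14 partners of laminin in the basement membrane, 10 were expressed and 8 of these (80.0%) passed 2-fold, beside 48.4% of all expressed genes. Their median range was 3.07-fold, beside 1.95-fold, and 5 of the 10 had a median of at least 10 TPM. The laminin-binding proteins AGRN (agrin), DAG1 (dystroglycan) and BCAM were highest, at medians of 251, 226 and 61.4 TPM. COL4A1, a chain of the collagen network of basement membranes, was near the limit at 0.178 to 2.45 CPM, and COL7A1, the anchoring fibril collagen, was at 1.54 to 9.90 CPM.

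The list of other integrin ligands had 12 of 18 genes expressed, and 10 of these (83.3%) passed 2-fold, beside 48.4% of all expressed genes. Their median range was 3.79-fold, beside 1.95-fold. CDH1 (E-cadherin), the ligand of ITGAE/ITGB7, was at a median of 532 TPM, CYR61 at 174 TPM and THBS1 (thrombospondin 1) at 161 TPM. SPP1 (osteopontin), an RGD ligand, ran from 0.362 CPM in S22 to 17.7 CPM in S20. CTGF ran from 1.77 CPM in S13 to 75.7 CPM in S18.

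All 8 markers of the breast carcinoma line were expressed, and 5 passed 2-fold (62.5%, beside 48.4% of all expressed genes). ERBB2 was at 3869 to 9322 CPM. The luminal keratins KRT8 and KRT18 were highest per length, at medians of 3363 and 2486 TPM, and KRT19 and KRT5 were the widest, KRT19 at 13.8 to 38.3 CPM. Of the fibroblast markers, 1 of 5 was expressed, COL1A1 at 6.78 to 14.7 CPM. COL1A2 and PDGFRB reached 0.246 and 0.108 CPM at most, and DCN and LUM had no fragment. Of the endothelial markers, 4 of 5 were expressed, with PECAM1 at 28.0 to 77.9 CPM, CDH5 at 11.03 to 55.6 CPM, VWF at 3.20 to 9.41 CPM and KDR at 0.607 to 4.61 CPM, whereas TEK reached 0.102 CPM at most. The summed endothelial level was 48.6 to 144 CPM, and its part in the integrin and laminin levels was not tested.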

How the data were processed

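Per the labels' protocols, RNA was made into libraries with a directional kit. Per the file headers, the authors counted paired fragments with featureCounts 1.4.6 on the GENCODE 25 annotation, summed over exons by gene name and with no strand option. The command names 24 alignment files and the deposited table holds 12 columns of raw counts. The submitters' processing notes name hg38 (GRCh38) as the build. They list, with no order, STAR 2.4, Subread 1.4.6, SAMtools 1.2, FastQC 0.11.5 and Trim Galore 0.4.5. The deposited table also gives each gene's exonic length in bases, another quantity used here for TPM.

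CPM and TPM were computed from the counts with Python 3.11.15. TMM factors came from edgeR 4.0.16 and size factors from DESeq2 1.42.0 (R 4.3.3), as alternatives only. Poisson intervals (95%) and limits for a count of 0 (3 fragments) cover counting error only. Only the call of a range of at least 2-fold was tested on simulated data. The simulation drew Poisson counts and judged the more abundant genes only. The other computations were not tested in this way. Every member with a mean of at least 1 CPM was named; for up to 8 members with the widest range and a mean of at least 5 CPM, every library is given. Of related lists, the 3 genes highest per length and the 2 widest are named; ILK, CD3E, CD68, DCN, LUM and TEK were added after their values were seen. Members and lists were chosen with earlier results of these data known. The planned rank correlations are not given, because the libraries fall into clusters. Alternatives were other minimums, fold limits, scalings, gene lengths and leaving out each library.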

Additional observations from a re-analysis of the deposited data

How the results depend on the processing

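The number of expressed members was 28, 20 and 24 with a minimum of 0.5 CPM, 5 CPM or 1 TPM, and 25 with TMM or DESeq2 scaling and without each library in turn. Pairs of expressed integrin subunits numbered 18, 11 and 13 under these 3 minimums. Laminin trimers fell from 8 to 4 with a minimum of 5 CPM and to 5 with 1 TPM, and stayed at 8 with 0.5 CPM. Members with at least the fold limit between libraries numbered 24 of 25 at 1.5-fold (96.0%, beside 78.7% of genes) and 12 at 3-fold (48.0%, beside 26.1%). With TMM, with DESeq2 and without each library the number at 2-fold was 15. With no minimum, 23 of the 35 members passed 2-fold. That count cannot be judged, because a gene with a lowest count of 0 passes and no share of all genes is given beside it. All 10 of the highest members per length were also the 10 highest with the longest GENCODE 29 transcript as length. Their order changed, however, with ITGA3 above LAMC1, LAMA5 and LAMB3 and ITGB6 above ITGAV in median TPM. The range of ITGB4 then overlapped those of ITGA3, ITGB6 and LAMA5. Pairs of the widest members sharing at least 3 of their 4 lowest libraries numbered 6 to 8 without each library in turn and 8 with TMM. Of 352 fold ranges of single members under TMM, DESeq2 or without 1 library, 350 were within 1.5 times the reported value; the others were ITGA1 without S18 (6.45-fold) and LAMC3 without S15 (2.39-fold). The Pearson alternative for co-variation was not run. Members below the minimum rest on 14 fragments or fewer a library, apart from ITGB3. No paired analysis was possible because no column carries a replicate number.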

Other observations

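Over all expressed genes the libraries formed clusters. No library is tied to a label, so the clusters could not be compared with treatment or repeat. Average linkage on log2(CPM + 1) separated S21 to S24 from the rest when divided into 2 clusters. A division into 3 separated S13, S14, S17 and S18 from S15, S16, S19 and S20. A division into 6 gave the pairs S13 and S17, S14 and S18, S15 and S19, S16 and S20, S21 and S22, and S23 and S24. The number of clusters was chosen and not estimated. The first principal component held 54.1% of the variance. Its scores were -9.77, 2.14, -42.41, -35.56, 0.17, 9.59, -38.4 and -32.1 for S13 to S20, and 51.36, 58.17, 17.77 and 19.04 for S21 to S24. Components 2 and 3 held 15.4% and 11.5%. The closest pair, S15 and S19, had a chi-square of 8.45 per gene between their counts, so no pair of libraries looked like 1 library deposited more than once. These clusters come from the values, could not be matched to a label, and were neither averaged nor tested against each other.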
